A study of Mus musculus with 2 samples.

Results

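ATF4 peaks were examined at 47 genes of central carbon metabolism, of 21887 protein-coding genes in the annotation. These genes encode enzymes of glycolysis (15 genes), of pyruvate and lactate conversion (10), of the TCA cycle with its cytosolic isoforms (15) and of the pentose phosphate pathway (7). They were listed by enzyme function, with earlier results of this library known. All 47 were found in the RefSeq gene table of GRCm38.p6. The question was whether ATF4, the transcription factor at the end of the PERK branch of endoplasmic reticulum stress, occupied these genes in neurons, since that branch was studied here for its control of metabolic genes.

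ATF4 occupancy was measured by CUT&Tag, in which an antibody brings the pA-Tn5 transposase to a protein on chromatin and the DNA cut nearby is sequenced. The cells, labelled as primarily neurons, were grown from embryonic mouse brain (hippocampus and cortex, strain C57BL/6). 1 library was made with the ATF4 antibody and 1 with IgG, from 100000 cells each. The groups share the strain, tissue and culture, the sources used here do not say whether hemin had been added, and the cell label could not be checked because peaks do not measure transcripts. Only the peaks of the ATF4 library are described, the IgG library was not analysed here, and no value below has a replicate error or can be read as enrichment over IgG. The list holds 7873 peaks on 21 chromosomes, with a median fold enrichment of 4.33 over the background that the peak caller estimated. Their median is 4 fragments at the summit, the highest point of a peak, and 41% of them rest on 3 fragments.

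Glycolysis splits glucose into pyruvate, which becomes lactate in the cytosol or enters the mitochondrial TCA cycle as acetyl-CoA. The pentose phosphate pathway branches off after the first step of glycolysis and makes NADPH and ribose. ATF4 is best known for raising genes of amino acid synthesis, amino acid transport and tRNA charging under stress, where it binds as a dimer with C/EBP proteins. In neurons glucose is the main fuel, and NADPH feeds the defence against oxidants.

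Of the 47 genes, 9 (19.1%) had a summit at a gene end, that is within 1 kb of either end of the annotated gene, against 8.11% of the 21840 other protein-coding genes. These 9 were Mdh1, Mdh2, Cs and Aco1 of the TCA group, Pfkl, Eno1 and Pkm of glycolysis, Me2 of the pyruvate group and Taldo1 of the pentose phosphate pathway. A summit lay inside the gene for 9 genes as well (19.1%, against 14.3% of other genes), and inside or within 10 kb for 16 (34%, against 24.7%). The other 31 genes had no summit inside or within 10 kb. Stringent peaks, meaning those whose -log10 q reached 5, gave counts too small to order the shares. By these, only Mdh1 among the 47 genes had a summit at a gene end (1 gene, 2.13%, against 2.74% of other genes), while 3 genes had one inside (6.38%, against 3.01%) and 4 inside or within 10 kb (8.51%, against 6.21%). The shares are counts in 1 library, and no test was run on them.

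**Figure D1:**
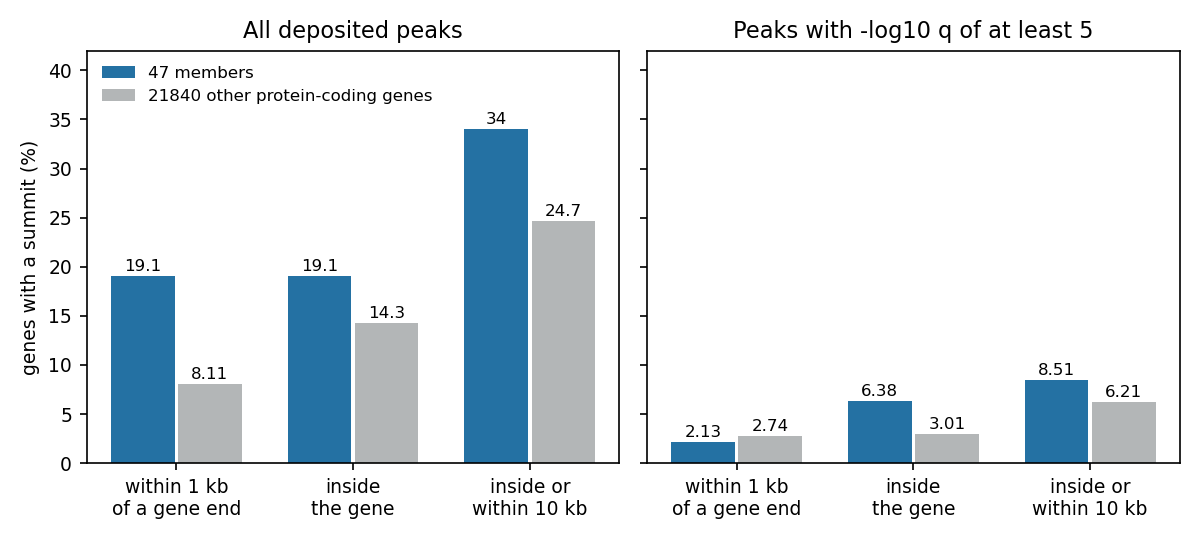
Share of genes (%) with a summit near or inside them, for the 47 carbon metabolism genes (blue) and the 21840 other protein-coding genes (grey), with all deposited peaks on the left and stringent peaks (-log10 q, 5 or more) on the right. At gene ends the shares are 19.1% and 8.11% with all peaks, and 2.13% and 2.74% with the stricter ones.

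The TCA group had gene-end peaks at 4 of 15 genes (26.7%) and glycolysis at 3 of 15 (20%), against 8.11% of other genes. Once internal starts are counted, glycolysis had 5 and the TCA group 4, against 8.17% of other genes. No TCA gene had a peak in any other position. Mdh1, the cytosolic malate dehydrogenase that passes reducing equivalents between cytosol and mitochondria, had the TCA peak of highest enrichment. Its peak (chromosome 11, 21571802 to 21571980) held 9 fragments at the summit, with an exact Poisson 95% interval of 4.12 to 17.1 for counting error only, and was enriched 8.28-fold at a q of 9.84e-10. The summit lay 44 bp inside the annotated start of Mdh1 and 79 bp from an end of Wdpcp, so the peak cannot be assigned to either gene alone. 94.7% of all peaks in the library had a lower fold enrichment.

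Mdh2, the malate dehydrogenase of the mitochondrial cycle, had 5 fragments (1.62 to 11.7) and an enrichment of 5.27-fold at a q of 4.89e-05 (chromosome 5, 135778544 to 135778753). That summit lay 52 bp upstream of the start of Mdh2 and 173 bp from an end of Styxl1. Cs, citrate synthase, which brings acetyl-CoA into the cycle, had 6 fragments (2.20 to 13.1) and a 5.14-fold enrichment, 102 bp upstream of the start (chromosome 10, 128337563 to 128338003). Aco1 encodes the cytosolic aconitase that doubles as an iron-responsive RNA-binding protein. Its peak (chromosome 4, 40143019 to 40143510) had 5 fragments, a 4.46-fold enrichment and a summit 206 bp upstream of the start. The intervals of all 4 counts overlap, so the TCA peaks cannot be ranked by fragments at this depth. No summit lay inside or within 10 kb of the other 11 genes of this group, among them the isocitrate dehydrogenase subunits Idh3a, Idh3b and Idh3g, the dehydrogenases Idh1, Idh2 and Ogdh, and fumarase, Fh1.

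The promoter windows of both malate dehydrogenase genes are shown because these are the gene-end peaks with the highest fold enrichment among the 47 genes. Each runs from 250 bp before to 50 bp after the annotated start, as given by RefSeq for GRCm38.p6, and reads 5′ to 3′ on the strand of the gene. Capitals mark TGACGTCA, the cAMP response element to which bZIP proteins such as the ATF family bind. The window of Mdh1 lies at chr11:21571885-21572184 on the minus strand and that of Mdh2 at chr5:135778399-135778698 on the plus strand.
Mdh1: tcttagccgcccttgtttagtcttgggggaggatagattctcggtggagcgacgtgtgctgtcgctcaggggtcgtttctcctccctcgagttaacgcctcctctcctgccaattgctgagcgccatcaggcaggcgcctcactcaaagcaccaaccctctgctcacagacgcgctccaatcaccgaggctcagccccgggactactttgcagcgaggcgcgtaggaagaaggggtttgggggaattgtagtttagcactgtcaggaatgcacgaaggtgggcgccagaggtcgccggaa
Mdh2: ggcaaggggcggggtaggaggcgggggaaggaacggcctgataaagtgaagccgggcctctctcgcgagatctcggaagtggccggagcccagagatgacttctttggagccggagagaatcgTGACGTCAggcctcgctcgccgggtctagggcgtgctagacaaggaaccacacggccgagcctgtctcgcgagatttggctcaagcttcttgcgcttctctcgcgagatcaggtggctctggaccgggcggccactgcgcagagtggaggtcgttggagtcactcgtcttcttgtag

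In Mdh2 the element begins 127 bp before the start, its middle lying 71 bp from the summit and just outside the called peak. The window of Mdh1 holds neither this element nor the letters searched for the C/EBP-ATF composite element.

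Glycolysis had peaks inside or within 10 kb of 7 of 15 genes (46.7%, against 24.7% of other genes), 3 of them at a gene end. Pfkl, a subunit of phosphofructokinase, which commits sugar to glycolysis, had 4 fragments (1.09 to 10.2) and a 4.39-fold enrichment, with its summit 355 bp inside the start (chromosome 10, 78009365 to 78009711). Eno1, enolase, had 4 fragments and a 4.11-fold enrichment (chromosome 4, 150236929 to 150237189), 118 bp upstream of the nearest of its annotated starts. Pkm, pyruvate kinase, which makes pyruvate and ATP in the last step, had 4 fragments and a 4.20-fold enrichment (chromosome 9, 59656551 to 59656737), 21 bp upstream of its start. These 3 peaks are equal in fragments, at the median of the whole list.

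For 2 further glycolysis genes the gene-end criterion missed a peak at a start, because their transcripts begin at several places. Aldoa, the aldolase that splits fructose 1,6-bisphosphate, had 8 fragments (3.45 to 15.8) and a 6.78-fold enrichment at a q of 1.06e-06 (chromosome 7, 126799284 to 126799739). That summit lay 1605 bp from the nearer gene end but 135 bp upstream of an internal annotated start. Hk1, the hexokinase that traps glucose in the cell, had 4 fragments and a 4.33-fold enrichment (chromosome 10, 62340445 to 62340738). It lay 39.5 kb inside the gene and 45 bp upstream of an internal start. Counting every start in the RefSeq promoter table, 10 of the 45 genes listed there had a summit within 1 kb of a start (22.2%), against 8.17% of 17447 other genes. With stringent peaks these were 2 of 45 (4.44%, against 2.82%). The 45 genes average more annotated starts per gene than the others (1.44 against 1.21), which gives them more places to be counted. The part of this in the difference was not tested. With only the start at the gene end counted, the shares were 17.8% of the 45 genes and 7.45% of the others. Me2 and Idh3a have no entry in that table.

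The window of the internal Aldoa start, chr7:126799205-126799504 on the minus strand, is shown because it carries the tallest peak at a glycolysis start.
Aldoa: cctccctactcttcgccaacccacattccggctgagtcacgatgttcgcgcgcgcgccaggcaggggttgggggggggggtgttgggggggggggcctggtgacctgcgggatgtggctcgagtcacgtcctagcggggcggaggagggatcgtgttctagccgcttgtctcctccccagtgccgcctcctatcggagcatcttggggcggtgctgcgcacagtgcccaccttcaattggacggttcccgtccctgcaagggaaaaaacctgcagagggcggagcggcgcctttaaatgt

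None of the letters searched occurs in it, on either strand. It is rich in G and C, at 65.7%.

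The remaining glycolysis peaks lay away from starts. Pfkp, the platelet-type phosphofructokinase subunit, had 2 peaks inside the gene. The stronger (chromosome 13, 6631293 to 6631602) had 9 fragments and an 8.17-fold enrichment at a q of 1.99e-09, 17366 bp downstream of the nearest start. The weaker, from 6640514 to 6640750, had 4 fragments. Gapdh, the dehydrogenase that makes the first NADH of glycolysis and is widely used as a reference gene, had only a peak of 3 fragments (0.619 to 8.77) 7.72 kb outside the gene, where it lay inside Iffo1. No summit lay within 10 kb of Hk2, Gpi1, Pfkm, Aldoc, Tpi1, Pgk1, Pgam1 or Eno2. Among isozyme genes, Pfkl and Pfkp had called peaks and Pfkm had none. Aldoa had one and Aldoc had none, and Eno1 had one and the neuronal enolase Eno2 had none. Only 24.7% of other genes had a summit inside or within 10 kb, so such mixed pairs do not show that isozymes differ. The called peaks of these isozyme genes also rest on few fragments, 4 to 9 each.

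**Figure D2:**
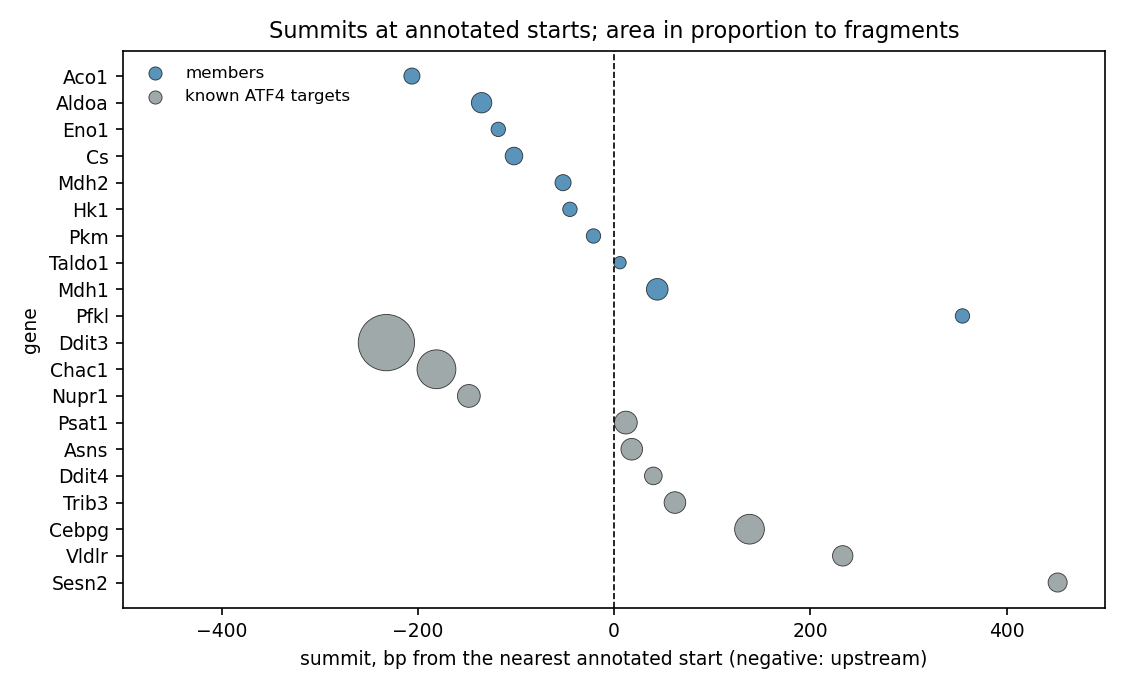
Position of summits within 500 bp of an annotated start, in bp from that start (horizontal axis, negative values upstream), 1 row per gene, with the area of a circle in proportion to the fragments at the summit. The members (blue) lie between 206 bp upstream (Aco1) and 355 bp downstream (Pfkl), and known ATF4 targets (grey) between 232 bp upstream (Ddit3) and 452 bp downstream (Sesn2).

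In the pyruvate and lactate group 1 of 10 genes had a summit at a gene end (10%, against 8.11% of other genes) and 2 of 10 had one inside or within 10 kb (20%, against 24.7%), both near the background. Me2, the mitochondrial malic enzyme that turns malate into pyruvate, had 5 fragments and a 5.19-fold enrichment at a q of 8.76e-05, 193 bp outside a gene end (chromosome 18, 73815546 to 73815763). Me1, its cytosolic counterpart and a source of NADPH, had a peak of 3 fragments 11.1 kb inside the gene, enriched 3.44-fold. Both lactate dehydrogenase genes, Ldha and Ldhb, the pyruvate dehydrogenase complex genes Pdha1, Pdhb, Dlat and Dld, and the pyruvate carboxylase gene Pcx had none within 10 kb. The nearest summit lay 143.3 kb from Ldha and 1021 kb from Pdha1.

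In the pentose phosphate pathway 1 of 7 genes had a summit at a gene end (14.3%, against 8.11% of other genes) and 3 of 7 had one inside or within 10 kb (42.9%, against 24.7%). These shares rest on 7 genes. Taldo1, transaldolase, which returns sugars to glycolysis, had 3 fragments and a 3.62-fold enrichment, 6 bp inside the start (chromosome 7, 141392103 to 141392288). Pgd, the second NADPH-producing enzyme of the pathway, had a peak of 3 fragments inside the gene and a second peak 8.11 kb upstream of its start. The second (chromosome 4, 149174779 to 149174985) was the tallest within 10 kb of any of the 47 genes, with 11 fragments (5.49 to 19.7) and a 9.80-fold enrichment at a q of 1.28e-12. It lay in no protein-coding gene, and the nearest gene end was that of Kif1b at 1508 bp. Rpia, ribose 5-phosphate isomerase, had 4 fragments 7.17 kb upstream of its start. G6pdx, the gene of the first and rate-limiting NADPH-producing enzyme, had no summit nearer than 53.7 kb. Pgls, Tkt and Rpe had none within 10 kb either.

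**Figure D3:**
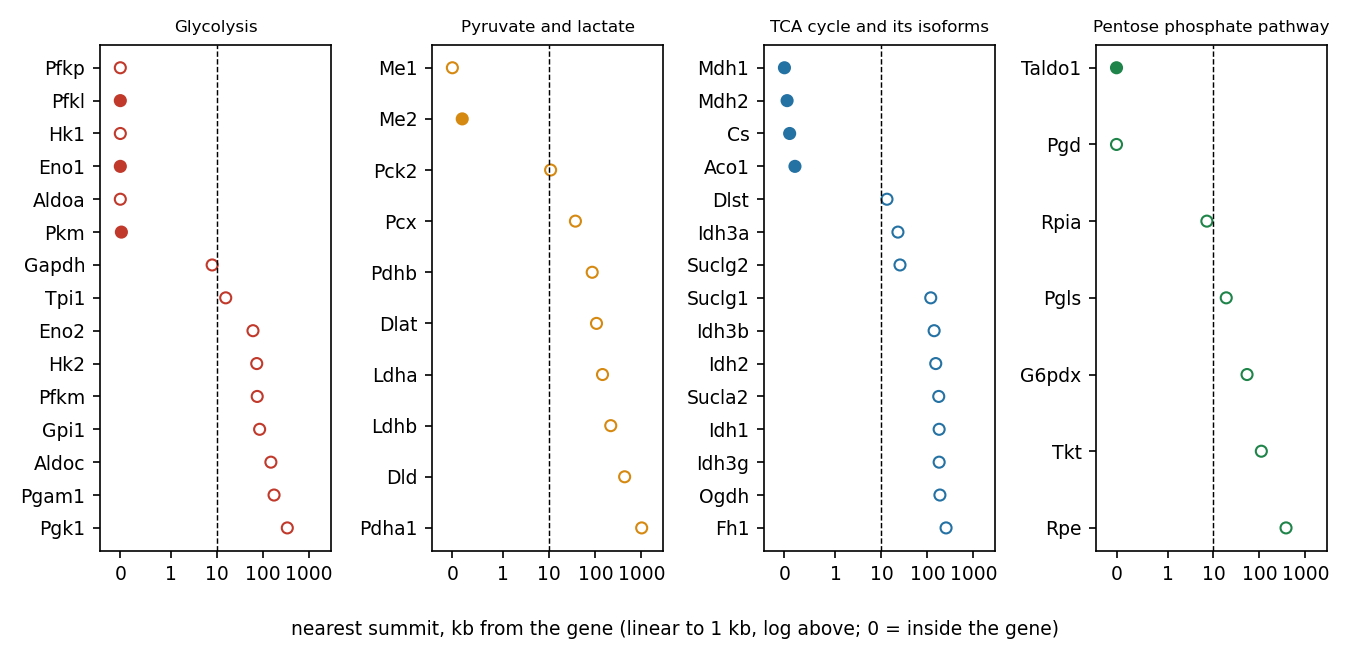
Distance from each of the 47 genes to the nearest summit in kb (linear up to 1 kb and logarithmic above, with 0 for a summit inside the gene), by pathway group. The dashed line stands at 10 kb, and filled circles are genes with a summit within 1 kb of either end. 16 genes lie to the left of it and 31 to the right.

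Among the 31 genes without a peak, the nearest summit lay 10.6 to 1021 kb away, with a median of 118.4 kb, and 18 of them had no summit within 100 kb (0 fragments are not implied, since the list holds only called peaks). Besides Pck2, 3 genes had one within 20 kb. The nearest summit to Tpi1, triose phosphate isomerase, lay 15.2 kb away with 11 fragments, 77 bp from an end of Usp5. That of Dlst lay 13.2 kb away inside Prox2, and that of Pgls 18.9 kb away inside Slc27a1.

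The other genes without a peak were spread over all 4 pathway groups. In glycolysis the nearest summit lay 59.7 kb from Eno2, 72.1 kb from Hk2, 73.8 kb from Pfkm, 83.4 kb from Gpi1, 146.6 kb from Aldoc, 171.7 kb from Pgam1 and 333.5 kb from Pgk1. In the pyruvate group it lay 36.9 kb from Pcx, 85.5 kb from Pdhb, 106.1 kb from Dlat, 216.7 kb from Ldhb and 434.6 kb from Dld. Idh3a, at 22.9 kb, and Suclg2, a subunit of succinyl-CoA synthetase, at 25.3 kb, were the nearest of the remaining TCA genes. Suclg1, Idh3b, Idh2, Sucla2, Idh1, Idh3g, Ogdh and Fh1 followed at 118.4 to 255 kb. Tkt, transketolase, and Rpe, of the pentose phosphate pathway, lay 109.9 and 378.9 kb from a summit.

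Gene-end peaks of these genes were lower in the median than those of known targets, in fragments and in fold enrichment. The 9 gene-end peaks had 5 fragments in the median, from 3 to 9, and a median enrichment of 4.46-fold. The 1518 peaks at ends of other protein-coding genes had a median of 5 fragments as well, at 5.04-fold. 6 or more fragments were found in 2 of the 9 (22.2%) and in 45% of the 1518. All 10 known ATF4 targets that were listed as a yardstick, Asns, Psat1, Chac1, Trib3, Sesn2, Ddit4, Ddit3, Vldlr, Nupr1 and Cebpg, had a summit at a gene end, with 6 to 61 fragments and a median of 9.5. They were listed with results of this library known and are no independent check. Their peaks were also wider, with a median of 716 bp against 218 bp. Mdh1 equalled Asns and Trib3, with 9 fragments each, whereas Ddit3 with 61 fragments (46.7 to 78.4) and Chac1 with 29 (19.4 to 41.6) lay above the interval of every gene-end peak of the 47 genes. The estimated background was also higher there, at 6.21 for Ddit3 and 1.74 for Chac1, against 0.207 for Mdh1. By fold enrichment the known targets ran from 4.46 to 10.9, with a median of 6.58. Ddit3, at 8.60-fold, was then close to Mdh1, at 8.28-fold. 4 of the 18 peaks within 10 kb of the 47 genes were stringent (22.2%), at Mdh1, Aldoa, Pfkp and upstream of Pgd, near the share of 18.3% among all 7873 peaks.

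**Figure D4:**
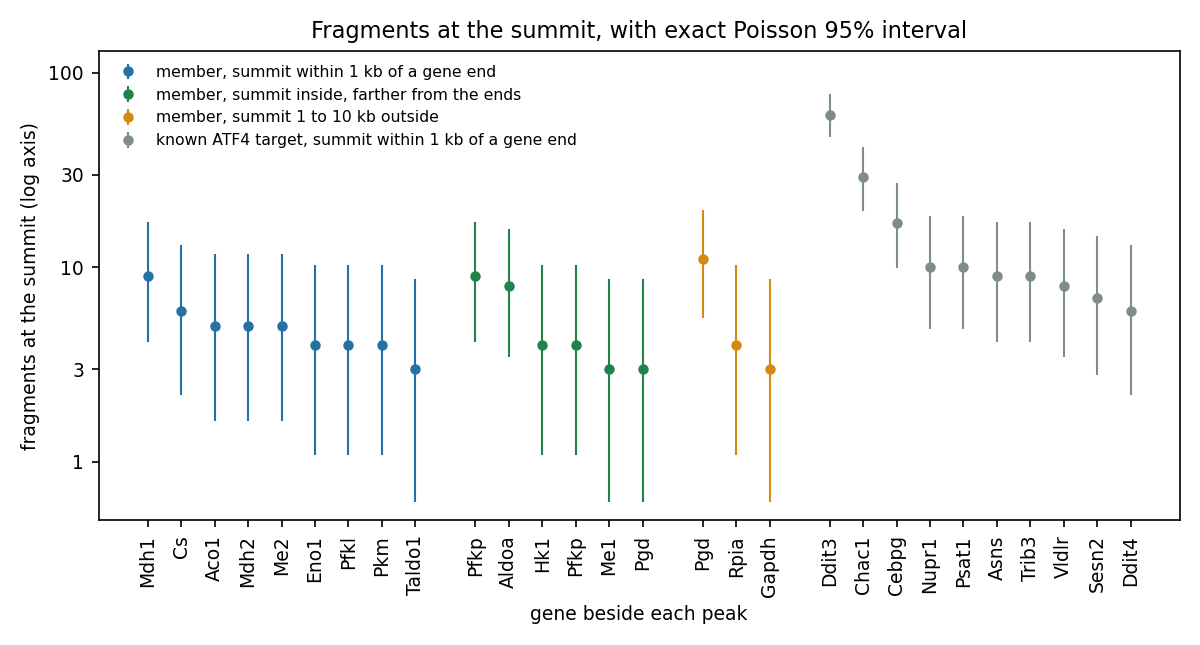
Fragments at the summit (log axis) of each peak inside or within 10 kb of the 47 genes, by position, and of the gene-end peaks of 10 known ATF4 targets, with exact Poisson 95% intervals that cover counting error only. The 9 gene-end peaks of the 47 genes run from 3 to 9 fragments and those of the known targets from 6 to 61.

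The composite element TGATGCAA was found in the promoter windows of 0 of the 45 genes with an entry, against 1.01% of 17492 protein-coding genes. The looser TGATGNAA, where N is any base, includes it and was found in 1 (Pck2, 2.22%) against 4.13%. TGACGTCA, which overlaps neither and reads the same on both strands, was found in 3 (Mdh2, Ldha and Ogdh, 6.67%) against 2.54%, and of these only Mdh2 had a peak. Across the whole library, TGATGCAA was in 3.62% of 663 promoter windows under a peak of 6 or more fragments, in 0.183% of 547 windows under lower peaks alone, and in 0.793% of 20053 windows under no peak. TGACGTCA was in 3.92%, 5.85% and 2.08% of the same windows. Among the known targets, 3 of 10 genes held TGATGCAA and 0 of 10 held TGACGTCA. The 11 promoter windows of the 47 genes that lay under a peak, from 9 genes, held no TGATGNAA. For 7 of the 11 the peaks had fewer than 6 fragments, and under such peaks alone the motif was in 0.731% of all windows, against 8.9% under taller peaks and 3.51% under no peak, so a count of 0 is near the share of most of these windows. A match describes the letters and not a bound site, and a window without one says nothing about ATF4 elsewhere.

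Pck2, the mitochondrial enzyme that makes phosphoenolpyruvate, is known from other cells as a target of ATF4, and it fell just outside the 10 kb window. Its nearest summit lay 10.6 kb beyond the far end of the gene, on the side away from its start, with 12 fragments and a 7.97-fold enrichment (chromosome 14, 55560101 to 55560770). That summit was inside Dcaf11 and 1531 bp from an end of Dcaf11. The promoter of Pck2 (chr14:55540016-55540315, plus strand) is set beside that of Chac1 (chr2:119350992-119351291, plus strand), a known ATF4 target that had 29 fragments beside its start. Capitals mark matches to TGATGNAA, which includes TGATGCAA. In these windows both are matched on the opposite strand, so they are read as their reverse complements. The Pck2 match lay 20489 bp from the summit inside Dcaf11.
Pck2: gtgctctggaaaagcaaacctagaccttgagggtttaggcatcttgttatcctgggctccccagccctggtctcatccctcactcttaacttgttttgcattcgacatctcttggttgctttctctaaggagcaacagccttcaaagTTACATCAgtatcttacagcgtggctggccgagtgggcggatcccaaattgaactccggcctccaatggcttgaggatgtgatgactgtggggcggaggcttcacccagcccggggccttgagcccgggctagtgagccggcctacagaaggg
Chac1: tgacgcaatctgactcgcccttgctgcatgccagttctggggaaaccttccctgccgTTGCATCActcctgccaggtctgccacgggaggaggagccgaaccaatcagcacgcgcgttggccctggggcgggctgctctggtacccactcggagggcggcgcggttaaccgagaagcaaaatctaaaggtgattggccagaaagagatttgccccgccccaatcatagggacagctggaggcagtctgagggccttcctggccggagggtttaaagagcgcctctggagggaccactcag

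Base composition moved with the counts at gene ends. Protein-coding genes were divided into 3 equal classes by the GC content of their promoter, the richest window of a gene being used. Among other genes the share with a gene-end peak was 2.55% in the class of lowest GC, 9.55% in the middle class and 12.3% in the highest. Only 3 of the 45 genes were in the lowest class, 24 in the middle one and 18 in the highest. Gene-end peaks were at 0 of the 3 (against 2.55%), 4 of the 24 (against 9.55%) and 4 of the 18 (against 12.3%). Gene length moved with the counts inside genes: in 3 equal classes by length, a summit lay inside 3.79%, 10.9% and 28.3% of other genes, and inside 1 of 9, 5 of 27 and 3 of 11 of the 47 genes. The part of base composition and of length in the differences was not tested, nor was that of chromatin that is open in neurons, which was not measured in these data.

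**Figure D5:**
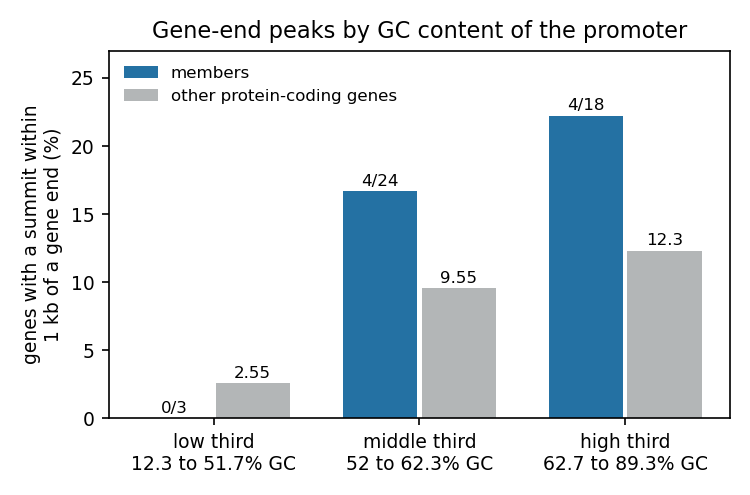
Share of genes (%) with a summit within 1 kb of a gene end in 3 classes of promoter GC content, for carbon metabolism genes (blue, with counts above the bars) and other protein-coding genes (grey, with percentages above the bars). The grey share is 2.55% in the lowest class and 12.3% in the highest, and 24 and 18 of the 45 genes fall in the middle and highest classes.

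A further 56 genes of the same pathways, among them further subunits, isozymes, regulators and transporters, were counted in the same way. 11 of them (19.6%, against 8.11% of the other protein-coding genes above) had a summit at a gene end. A summit lay inside the gene for 12 (21.4%, against 14.3%), and inside or within 10 kb for 17 (30.4%, against 24.7%). The 11 gene-end peaks were lower still, with a median of 3 fragments and a highest of 7. In the pyruvate group they included Mpc2, a subunit of the mitochondrial pyruvate carrier, with 7 fragments and a 6.44-fold enrichment, Pdhx, a component of the pyruvate dehydrogenase complex, with 5 fragments, and Pdk1 and Pdk2, kinases that switch that complex off, with 3 each. In the TCA group Sdha, the catalytic subunit of succinate dehydrogenase, had 5 fragments, and Slc25a11, the oxoglutarate carrier, had 3. Prps1 and Prps2, which use the ribose of the pentose phosphate pathway for nucleotides, had 3 and 4, and in glycolysis G6pc3, a glucose 6-phosphatase, had 3 and Gapdhs, the testis form of the dehydrogenase, 4. The Pdk2 and Gapdhs summits lay at the far end of the gene, 14567 and 9867 bp from the nearest annotated start. They were 221 bp from an end of Samd14 and 6 bp from an end of Tmem147. Mpc2 had the only stringent peak among the 11 (1 of 56 genes, 1.79%, against 2.74%). Inside or within 10 kb, stringent peaks were found at 1 of the 56 genes (1.79%, against 6.21% of other genes and 8.51% of the 47), and inside the gene at 0 of them (against 3.01% and 6.38%). For 7 of these 11 peaks the summit also lay within 1 kb of an end of another protein-coding gene, as for 2 of the 9 peaks above. Non-coding genes are left out of these counts. An end of one lay within 1 kb of the Cs, Pkm, Mdh2 and Hk1 summits.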

How the data were processed

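The deposited peaks of 1 ATF4 CUT&Tag library were used. The submitters' processing notes name FastQC, BWA, MACS2 2.1.2, deepTools and mm10. The control and threshold of peak calling are not given in the sources used here. The authors' table gives each peak a fold enrichment, which is a ratio. It also holds q-values and p-values as -log10. The deposited score is that -log10 q times 10, without its decimals, in each of the 7873 peaks. Fragments at the summit were solved from fold and p-value by MACS2's formulas, to within 0.001 of the -log10 p, in all 7873 peaks. If single reads were piled up, they are reads. Sequencing depth was not given by the file. PCR copies are not independent molecules, so 95% intervals cover counting error only.

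Summits were joined to the RefSeq GRCm38.p6 gene table (mm10 is that assembly). A gene end is either end of the annotated gene. Strand and starts came from the RefSeq promoter table, in which 45 of the 47 genes have an entry. Motifs were searched on both strands. All 47 genes were named, with their peaks or their distance to the nearest summit. Other pathway genes and known targets were named where they had a summit at a gene end, except for 1 gene that is not reported here. The genes and lists were chosen with earlier results of these data known. The solver and the join were tested on simulated data. Counts are descriptions, with no test. Alternatives were stricter peaks, other windows, overlap, 1 gene per summit, starts only and other motifs. Peak and gene tables were joined with pandas 2.3.3 and numpy 2.4.6 under Python 3.11.15, intervals came from scipy 1.17.1, and figures were drawn with matplotlib 3.10.9.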

Additional observations from a re-analysis of the deposited data

How the results depend on the processing

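Counts of the 47 genes moved by over 1.5 times mainly when weak peaks were removed. With a -log10 q of at least 5, 1 gene had a summit at a gene end, 3 inside (6.38%, against 3.01% of other genes) and 4 within 10 kb (8.51%, against 6.21%). By group, the gene-end counts were then 0 in glycolysis, 0 in the pyruvate group, 1 in the TCA group and 0 in the pentose phosphate pathway (0%, 0%, 6.67% and 0%, against 2.74%), and the counts within 10 kb were 2, 0, 1 and 1 (13.3%, 0%, 6.67% and 14.3%, against 6.21%). With at least 6 fragments, 2 genes had a summit at a gene end (4.26%, against 3.74% of other genes), 3 inside (6.38%, against 4.07%) and 5 within 10 kb (10.6%, against 8.35%). With a fold enrichment above the median, 6 had one at a gene end (12.8%, against 5.4%), 4 inside (8.51%, against 7.71%) and 9 within 10 kb (19.1%, against 14.3%). The motif TGATGNAA was in 1 gene and TGACGTCA in 3, in place of 0 for TGATGCAA. The gene-end count ran from 8 to 11 (17.8% to 23.4%, against 6.62% to 11.3% of other genes) under any base of the peak, 1 gene per summit, windows of 500 bp and 3 kb, annotated starts only and, chosen after the data were seen, any start of the promoter table. The count within 10 kb ran from 14 to 20 (29.8% to 42.6%, against 18.8% to 31%) under windows of 5 and 20 kb, overlap and 1 gene per summit. The count inside genes was 13 by overlap (27.7%, against 15.5%) and 9 with 1 gene per summit (19.1%, against 14%). No paired analysis was possible because the series has 1 library per antibody. At 3 to 5 fragments, the depth of most of these peaks, intervals span about the whole range seen.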
